A study of Homo sapiens with 4 samples.

Results

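The mRNAs of the CDK inhibitors and of the RB pocket proteins were followed in ACHN cells, an established line of human renal cell carcinoma, after silencing of PRR11. The members are the 10 genes CDKN1A, CDKN1B, CDKN1C, CDKN2A, CDKN2B, CDKN2C, CDKN2D, RB1, RBL1 and RBL2, found by their symbols among the 36359 genes of the count table. All 10 had enough counts to be tested. ACHN cells received a control siRNA (siNC, 2 libraries) or an siRNA against PRR11 (siPRR11, 2 libraries) with Lipofectamine 3000, and both groups shared the same line, medium and transfection. PRR11 encodes a proline-rich protein that the study links to renal cancer growth, and the RNA sequencing was done to look for what lies downstream of it. The labels call the libraries replicates without saying whether they came from separate cultures, so p-values measure only the spread between these libraries. The study lists more than a single siPRR11 duplex, and the labels do not say which was used. In bulk RNA, more cells that express a gene and more RNA per cell cannot be told apart.

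CDK inhibitors bind cyclin-dependent kinases or their complexes with cyclins and hold back the cell cycle. The Cip/Kip family (CDKN1A, CDKN1B and CDKN1C, for the proteins p21, p27 and p57) binds cyclin-CDK complexes broadly, while the INK4 family (CDKN2A to CDKN2D, for p16, p15, p18 and p19) binds CDK4 and CDK6 and keeps cyclin D away. The kinases phosphorylate the pocket proteins RB1, RBL1 (p107) and RBL2 (p130), which in their unphosphorylated form bind E2F factors and hold down genes of DNA synthesis. Much of this control acts on protein level, which mRNA counts do not measure.

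Counted reads lay between 59003839 and 92612749 per library, and a count of 3 corresponded to between 0.0324 and 0.0508 CPM (counts scaled to library size). PRR11 itself remained at 35.9% of its siNC level. The epithelial keratin KRT8 and the renal factor PAX8 were at 67788 or more and 16309 or more counts in every library. Among 7 markers of leukocytes or endothelium, CD68, which many cell lines express, was at 2621 to 5667 counts and the other 6 at 30 or fewer. The markers checked for an epithelial renal carcinoma line did not move together. KRT19 and EPCAM had log2 fold changes of -0.70 and -0.65 and KRT18 of 0.36, all called. KRT8, PAX8, PAX2 and VIM were not called, and CDH6 had at most 6 counts. The part of these shifts in the results was not tested. Of 21630 genes tested by edgeR's quasi-likelihood test, 16.7% had an adjusted p under 0.05 (Benjamini-Hochberg over all genes tested), 7.61% higher and 9.14% lower in siPRR11 cells. Low counts were mostly even numbers: among genes with 2 to 20 counts, 82.1% to 83.1% were even in each library.

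Silencing of PRR11 was followed by higher mRNA of 3 of the 10 genes. CDKN1A rose 2.1-fold, CDKN2C 1.45-fold and RBL1 1.27-fold, and the remaining 7, including the abundant CDKN1B, did not pass the threshold. These 3 calls in 10 genes stand beside the 7.61% of all tested genes that were called higher, and no member was called lower. With a library left out, the set of called genes changed in both directions. RBL1 lost its call in most of these fits, and CDKN1B or CDKN2D gained one in some. Across them the log2 fold change of RBL1 ran from 0.30 to 0.37. That of CDKN1B ran from -0.28 to -0.13 and that of CDKN2D from 0.17 to 0.57. The median log2 fold change of the 10 was 0.28, against 0.00 over all tested genes. In 8 of the 10 the CPM of the groups did not overlap, a separation that 58.4% of all tested genes also showed. The siPRR11 libraries were the higher ones in 7 of these 8 (29.1% of all tested genes) and the lower ones for CDKN1B (29.3% of all tested genes). A called rise of at least 1 on the log2 scale was seen in 1 of the 10, CDKN1A, and in 0.966% of all tested genes.

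Levels of different genes were compared as RPKM (reads scaled by exonic length and by library size), as the authors deposited them. In siNC cells CDKN1B stood far above the rest, at 77.2 ± 5.45 RPKM (SD, n = 2). CDKN1A followed at 14.5 ± 0.321 RPKM, CDKN2B at 8.24 ± 0.199 and CDKN2C at 6.57 ± 0.569 (SD, n = 2 each). The pocket proteins RBL2 and RB1 lay at 4.86 ± 0.25 and 4.08 ± 0.12 RPKM, CDKN2D at 3.9 ± 0.404 and RBL1 at 2.62 ± 0.097 (SD, n = 2 each). CDKN2A, at 0.166 ± 0.0293 RPKM, and CDKN1C, at 0.163 ± 0.0456 RPKM, formed the bottom of the order (SD, n = 2 each). RB1 and CDKN2D overlapped in their libraries, as did CDKN2A and CDKN1C, whereas the other neighbours in the order were separate.

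In siPRR11 cells the top of the order was again CDKN1B, at 69.3 ± 3.08 RPKM, before CDKN1A at 31.3 ± 1.71 RPKM (SD, n = 2 each). Below them CDKN2C and CDKN2B had changed places, with CDKN2C at 10.04 and 9.67 RPKM in its libraries and CDKN2B at 8.82 and 8.62. RBL2, CDKN2D and RB1 came next at 5.48 ± 0.071, 5.25 ± 1.02 and 4.91 ± 0.0527 RPKM (SD, n = 2 each). Within this middle group the libraries of CDKN2D spanned those of RBL2 and RB1. RBL1 followed at 3.43 RPKM, and CDKN1C and CDKN2A were at most at 0.251 RPKM in every library.

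**Figure D1:**
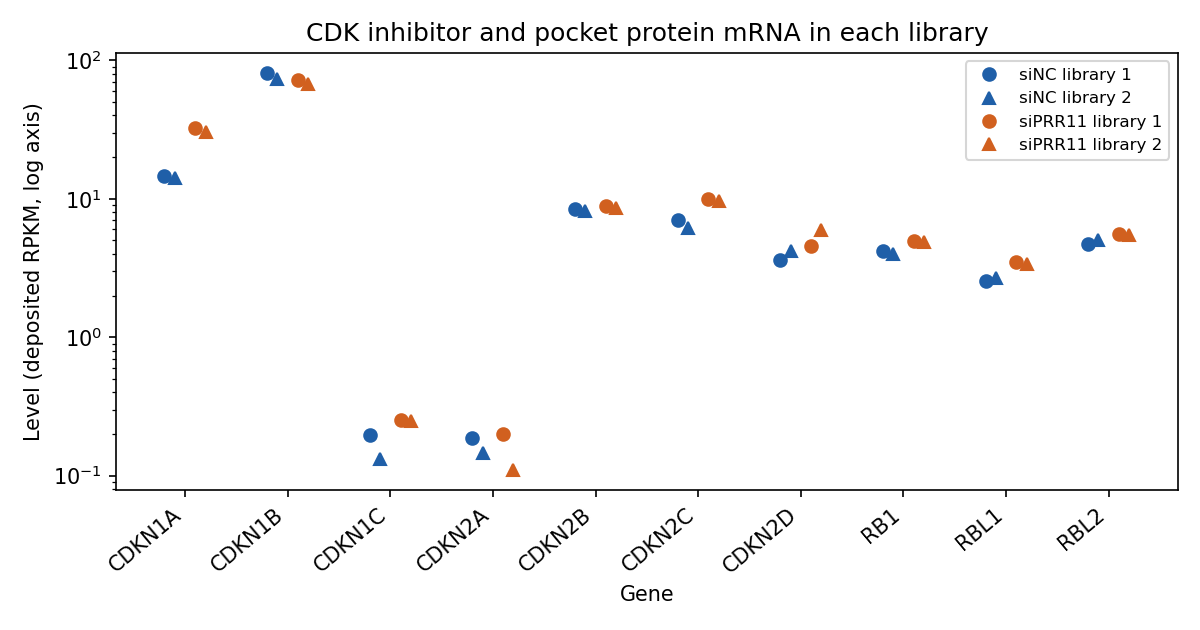
Level of each gene in each library, as deposited RPKM on a log axis; circles are library 1 and triangles library 2 of siNC (blue) and siPRR11 (orange). CDKN1B lies highest in all 4 libraries, CDKN1A rises from 14.5 to 31.3 RPKM on average, and CDKN1C and CDKN2A lie near the bottom of the axis in both groups.

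Among the Cip/Kip genes, CDKN1A moved most. The gene (chr6:36676460-36687339 on GRCh38, plus strand) encodes p21, which binds and inhibits cyclin-CDK complexes and also binds the replication clamp PCNA. Its level was 45.5 and 44.2 CPM in the siNC libraries and 97.5 and 90.5 CPM in the siPRR11 libraries, so both siPRR11 libraries lay well above both controls. The log2 fold change was 1.07 (standard error 0.0785, 95% interval 0.90 to 1.24, edgeR quasi-likelihood, adjusted p = 9.37e-06). By size, CDKN1A ranked 57 among the 1470 genes called higher whose average log2 CPM reached 1, and 97.9% of all tested genes had a lower log2 fold change.

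CDKN1B (chr12:12715058-12722371, plus strand) encodes p27, the main Cip/Kip protein of quiescent cells, whose amount is largely set by degradation. Its level was 231.6 and 209.9 CPM in the siNC libraries and 197.5 and 186 CPM in the siPRR11 libraries. The siPRR11 libraries were the lower ones, without overlap, but the log2 fold change of -0.20 (95% interval -0.37 to -0.03) had an adjusted p of 0.0977 in edgeR's quasi-likelihood test. Without siNC library 2, CDKN1B had a log2 fold change of -0.28 with an adjusted p of 0.0142 from edgeR, and it was not called with any other library left out.

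CDKN1C (chr11:2883213-2885881, minus strand) encodes p57, an inhibitor made from an imprinted gene and needed in development. It had 42 and 20 counts in siNC and 60 and 54 counts in siPRR11, all of them even numbers. The levels were 0.514 and 0.345 CPM against 0.636 and 0.631 CPM, above the floor of 3 counts but low. The log2 fold change of 0.54 had a wide 95% interval of -0.21 to 1.28 (edgeR quasi-likelihood, adjusted p = 0.324). Leaving out single libraries gave CDKN1C log2 fold changes from 0.30, without siNC library 2, to 0.87, without siNC library 1, and none was called.

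Since CDKN1A and CDKN1B differed in direction, the make-up of the family was compared within each library. CDKN1A held 15.3% and 16.2% of the summed Cip/Kip RPKM in the siNC libraries, and 31.2% and 30.9% in the siPRR11 libraries. CDKN1B held 84.5% and 83.6% in siNC, against 68.6% and 68.9% after silencing. The mean share of CDKN1A was thus 15.3 percentage points higher after silencing, and it was higher in both siPRR11 libraries than in either control (exact permutation test, two-sided, p = 0.333, the smallest p that 2 libraries against 2 allow). CDKN1B mRNA was 5.52 and 5.16 times that of CDKN1A in siNC but 2.2 and 2.23 times after silencing. The summed RPKM of the family moved little, from 91.8 ± 5.82 to 100.9 ± 4.8 (SD, n = 2 each). By library the sums were 104.3 and 97.5 after silencing, beside control sums of 95.9 and 87.7. Deposited RPKM carry no TMM scaling, and the TMM factors were lower for the controls (0.984, 0.983) than for the silenced cells (1.018, 1.015). Such scaling brings the sums closer, so the narrow gap between 97.5 and 95.9 was not read as a separation of the groups.

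**Figure D2:**
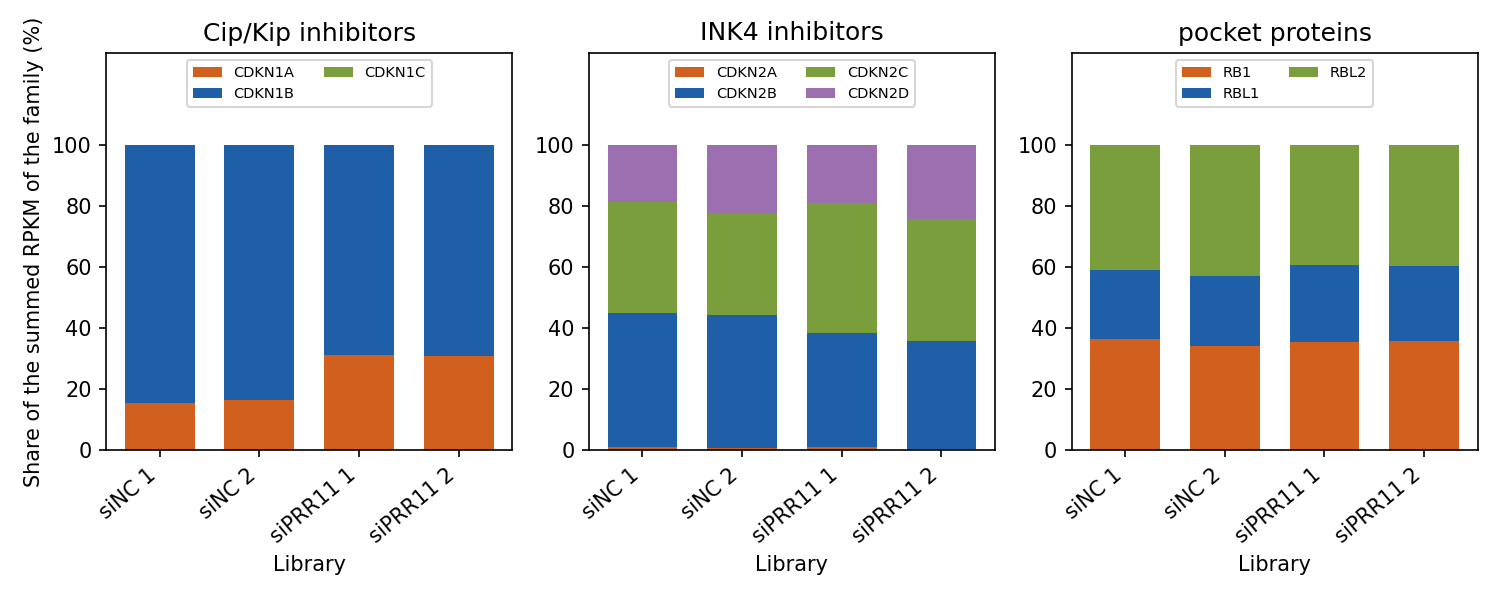
Share of each gene in the summed RPKM of its family, in percent, for each library; colours are the genes named in each panel. CDKN1A takes about 15.3% to 16.2% of the Cip/Kip sum in siNC and 30.9% to 31.2% in siPRR11, the CDKN2C part of the INK4 sum is larger in siPRR11, and the pocket proteins keep similar shares.

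In the INK4 family only CDKN2C was called. CDKN2C (chr1:50960745-50974633, plus strand) encodes p18, an INK4 protein that proliferating cells express. Its level was 23.5 and 20.8 CPM in the siNC libraries and 32.7 and 31.6 CPM in the siPRR11 libraries, without overlap. This gave CDKN2C a log2 difference of 0.54 (standard error 0.0932, 95% interval 0.33 to 0.74, edgeR quasi-likelihood, adjusted p = 0.00245). It was called with each library left out in turn, with log2 fold changes between 0.45 and 0.63.

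CDKN2D (chr19:10566462-10569059, minus strand), for p19, is another INK4 gene of cycling cells. It was at 5.52 and 6.4 CPM in siNC and at 6.68 and 8.84 CPM in siPRR11, where the libraries differed from each other more than the nearest libraries of the groups did. For CDKN2D the log2 fold change of 0.38 (95% interval 0.05 to 0.72) had an adjusted p of 0.111 in edgeR's quasi-likelihood test. This depended on single libraries. The adjusted p of CDKN2D was 0.0302 without siNC library 2 and 0.0238 without siPRR11 library 1, where the log2 fold changes were 0.49 and 0.57. Without siPRR11 library 2 the log2 fold change of CDKN2D was 0.17 with an adjusted p of 0.69.

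CDKN2B (chr9:22002903-22009363, minus strand), for p15, an inhibitor known to respond to TGF-beta, hardly differed between the groups. Its level was 34.6 and 33.5 CPM in siNC and 35.1 and 34.5 CPM in siPRR11, and the groups overlapped. Its log2 fold change was 0.03 with a 95% interval of -0.15 to 0.21 (edgeR quasi-likelihood, adjusted p = 0.833), so that a change the size of that of CDKN2C lay outside the interval.

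CDKN2A (chr9:21967753-21995301, minus strand) gives p16 and, from another reading frame, the protein ARF. Counts per gene do not separate these. The gene had 67 and 37 counts in siNC and 80 and 40 counts in siPRR11, or 0.82 and 0.638 against 0.849 and 0.468 CPM. The groups overlapped, and the 95% interval of the log2 fold change of -0.15 ran from -0.90 to 0.60 (edgeR quasi-likelihood, adjusted p = 0.811). Exons of the antisense gene CDKN2B-AS1 cover 7.9% of the exonic bases of CDKN2A, and CDKN2B-AS1 had 45, 21, 72 and 48 counts in the same order of libraries. Without stated use of strand in the counting, reads in the shared bases cannot be assigned to either gene.

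The genes on both sides of CDKN2A on chromosome 9p21 were therefore read as well. CDKN2B, in the adjacent stretch, had an RPKM 45, 55.9, 44.2 and 78.6 times that of CDKN2A in the 4 libraries, siNC first. MTAP, a housekeeping enzyme of methionine salvage, had 18, 10, 25 and 22 counts, and KLHL9 had 6, 2, 12 and 12. HACD4 had at most 2 counts and ELAVL2, a neuronal gene, at most 6. DMRTA1 had 352, 164, 458 and 352 counts. Low values were thus seen for CDKN2A, CDKN2B-AS1, MTAP, KLHL9, HACD4 and ELAVL2, with CDKN2B and DMRTA1 higher in all 4 libraries. None of the 4 tested neighbours was called, where 16.7% of all tested genes were. The log2 fold change of DMRTA1 was 0.32 and depended on single libraries, from 0.06 to 0.66 with a library left out. RNA counts do not show whether the DNA of these genes is intact in the line.

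Summed over the INK4 family, the level was 18.9 ± 0.393 RPKM in siNC and 24 ± 0.557 RPKM in siPRR11 (SD, n = 2 each). Both siPRR11 libraries lay above both controls. CDKN2C held 36.4% and 33.2% of this sum in siNC and 42.6% and 39.7% in siPRR11. CDKN2B held 43.8% and 43.6% in siNC and 37.4% and 35.4% in siPRR11.

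**Figure D3:**
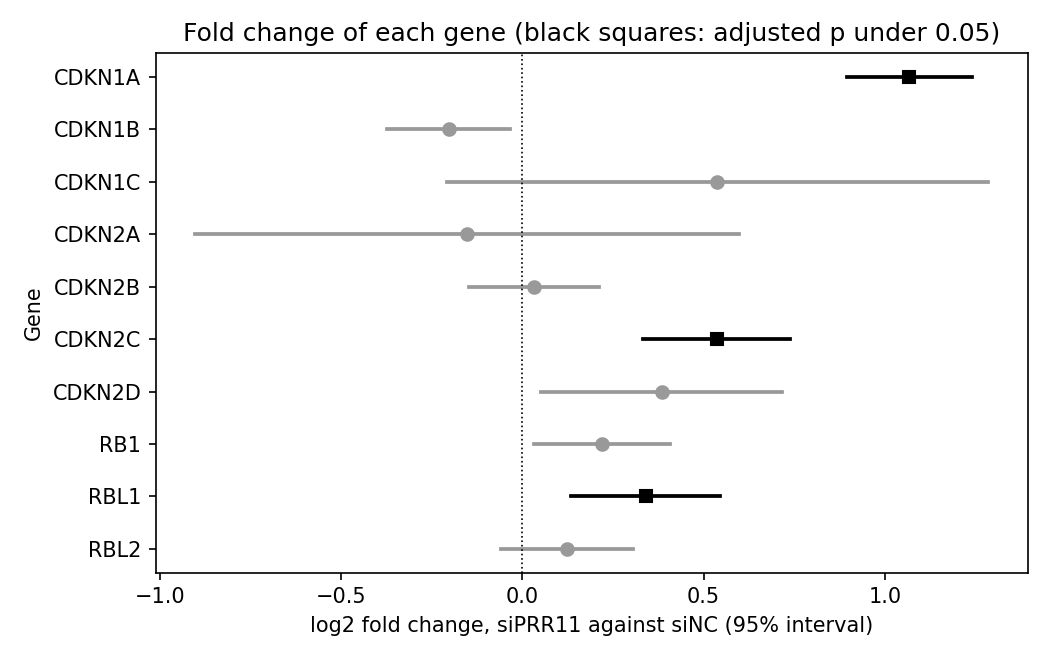
log2 fold change of each gene between siPRR11 and siNC from edgeR's quasi-likelihood test, with 95% intervals; black squares had an adjusted p under 0.05 and grey circles did not. CDKN1A at 1.07, CDKN2C at 0.54 and RBL1 at 0.34 are the called genes, and the intervals of CDKN1C and CDKN2A are the widest.

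Of the pocket proteins, RBL1 was called. RBL1 (chr20:36996349-37095995, minus strand) encodes p107, the pocket protein of proliferating cells, and its gene is a textbook target of E2F. It was at 15.5 and 16.3 CPM in siNC and at 20.4 and 19.7 CPM in siPRR11, without overlap. This was a log2 fold change of 0.34 (standard error 0.0938, 95% interval 0.13 to 0.54, edgeR quasi-likelihood, adjusted p = 0.0282). The size held with each library left out, between 0.30 and 0.37, but the call did not. The adjusted p of RBL1 from edgeR was 0.0602 without siNC library 1, 0.216 without siPRR11 library 1 and 0.117 without siPRR11 library 2. Limma on log2(RPKM + 1) gave 0.0854. Exons of RP4-621N11.2 on the other strand cover 3.5% of the exonic bases of RBL1.

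The RBL1 promoter is printed because its sequence holds E2F words that the other member promoters searched do not. It covers the 250 bases before the start of transcription, chr20:37095998-37096247 on the minus strand of GRCh38 (sequence from RefSeq, GRCh38.p14). The capitals mark matches to the E2F words TTTCCCGC, TTTGGCGC, TTTCGCGC and TTTGCCGC, searched on both strands.
RBL1 promoter: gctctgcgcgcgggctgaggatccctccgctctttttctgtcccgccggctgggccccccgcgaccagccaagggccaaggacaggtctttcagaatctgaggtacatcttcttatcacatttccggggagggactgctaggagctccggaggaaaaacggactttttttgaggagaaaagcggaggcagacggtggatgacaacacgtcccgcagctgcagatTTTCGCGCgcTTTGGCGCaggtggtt
The matches are TTTCGCGC, from 26 to 19 bases before the start, and TTTGGCGC, from 16 to 9 bases before it. At least 1 such word was present in 2.79% of 35116 promoters of this length, and at least 2 in 0.122%. All members but CDKN1C had a promoter entry in RefSeq's table, and no entry other than that of RBL1 held these words. The entry of RB1 lies at an internal start and not at the main promoter. A match or its absence does not show whether a factor binds there.

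RB1 (chr13:48303751-48481986, plus strand) encodes the retinoblastoma protein. Its level was 26.1 and 25.1 CPM in siNC and 30 and 29.6 CPM in siPRR11, close together within each group and apart between them. For RB1 the log2 fold change of 0.22 (95% interval 0.03 to 0.41) had an adjusted p of 0.107 in edgeR's quasi-likelihood test, and it was not called with any library left out.

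RBL2 (chr16:53433977-53491649, plus strand) encodes p130, the pocket protein that dominates in quiescent cells. It was at 34.9 and 37.5 CPM in siNC and at 39.7 and 39.1 CPM in siPRR11. RBL2 had a log2 fold change of 0.12 (95% interval -0.06 to 0.31, edgeR quasi-likelihood, adjusted p = 0.354). Exons of AKTIP and RP11-44F14.7 on the other strand cover 18.2% of the exonic bases of RBL2, which leaves its level more uncertain than that of RB1, whose exons overlap no other gene of the table.

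Within each library RBL1 was set against RBL2, since the balance of p107 and p130 differs between cycling and resting cells. The ratio of their RPKM was 0.545 and 0.534 in siNC and 0.632 and 0.62 after silencing. It was higher in both siPRR11 libraries, by 0.0867 on average (exact permutation test, two-sided, p = 0.333, the smallest p possible here). The summed RPKM of the pocket proteins was 11.6 ± 0.227 in siNC and 13.8 ± 0.215 in siPRR11 (SD, n = 2 each), and RB1 held between 34.1% and 36.5% of it in all 4 libraries.

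**Figure D4:**
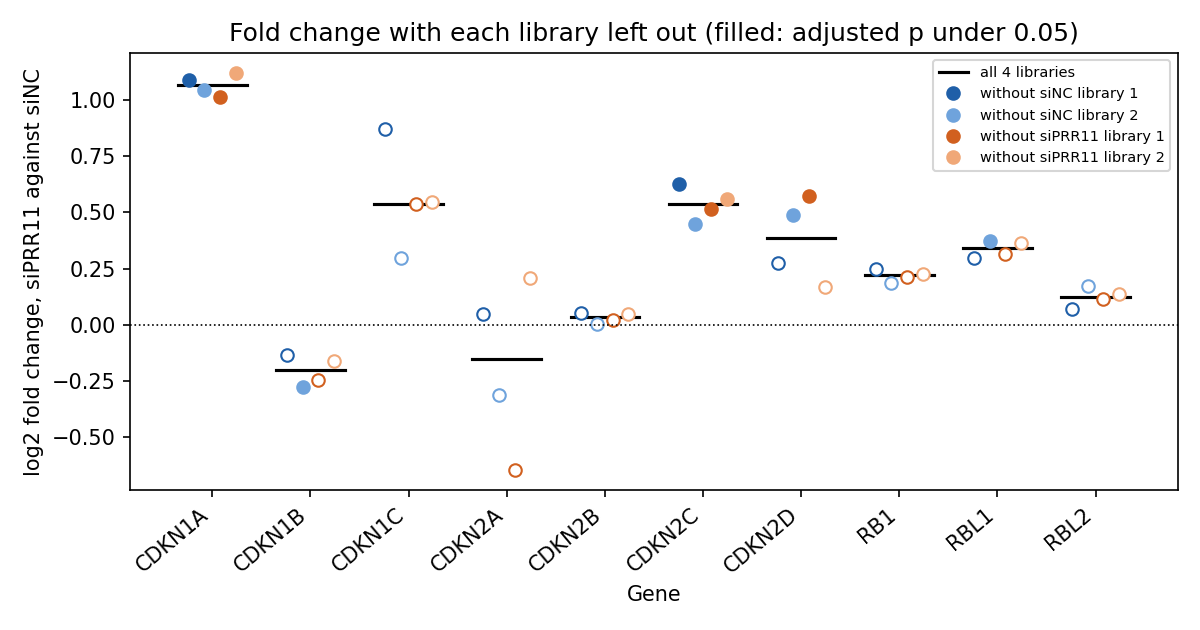
log2 fold change of each gene with all 4 libraries (black bars) and with each library left out in turn (points, coloured by the library left out; filled points had an adjusted p under 0.05). CDKN1A and CDKN2C are filled in all 4 fits, RBL1 in 1, and CDKN2A falls on both sides of 0.

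The genes around the inhibitors were then described with lists chosen for their textbook roles, with earlier results of these data known. The shares of all tested genes given beside them are descriptive, and no list was tested as a set. Among 21 cyclins, CDKs and the kinases and phosphatases that act on them, 8 were called higher and 4 lower, beside 7.61% and 9.14% of all tested genes, with a median log2 fold change of 0.15. Without siPRR11 library 2, 7 of the 21 were called. The D cyclins, the partners of CDK4 and CDK6, went in different directions. CCND3 rose from 64.9 and 69.5 to 105.1 and 115.4 CPM, by 0.72 on the log2 scale (edgeR quasi-likelihood, adjusted p = 0.00018). CCND2 fell from 3.35 and 3.86 to 1.46 and 1.82 CPM, by 1.13 on the log2 scale (edgeR, adjusted p = 0.00175). CCND1 was at 143 and 237 CPM in siNC and at 90.9 and 138.1 CPM in siPRR11, so its libraries differed widely within each group. The log2 fold change of CCND1 was -0.73 (edgeR, adjusted p = 0.0326), but it was -0.32 with an adjusted p of 0.0546 without siNC library 2, and DESeq2 gave an adjusted p of 0.295. Without siNC library 1 or siPRR11 library 2 it was -1.05 or -1.06.

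CDK4 and CDK6, the targets of the INK4 proteins, had log2 fold changes of -0.12 (95% interval -0.28 to 0.03) and -0.04 (95% interval -0.20 to 0.12), and neither was called. CDK2, the partner of cyclins E and A that p21 and p27 inhibit, rose from 119.9 and 120.3 to 153.4 and 152.6 CPM, by 0.35 on the log2 scale (edgeR quasi-likelihood, adjusted p = 0.0058). CCNE1, for cyclin E1, had a log2 fold change of 0.03 (95% interval -0.19 to 0.26) and was not called. CDC25C and WEE1, a phosphatase and a kinase with opposite effects on CDK1, rose by 0.49 and 0.39. Neither call held with every library left out: without siPRR11 library 2 the adjusted p from edgeR was 0.0774 for CDC25C and 0.0672 for WEE1, and without siPRR11 library 1 it was 0.134 for WEE1. MNAT1, a subunit of the CDK-activating kinase, fell by 0.52 (edgeR, adjusted p = 0.00407).

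Of 11 genes for E2F factors and their DP partners, 10 were tested, 3 were called higher and 1 lower, where 7.61% and 9.14% of all tested genes were. Without siPRR11 library 2, 2 of the 10 were called. E2F7 and E2F8, the atypical repressors, had log2 fold changes of 0.72 and 0.50, with adjusted p-values of 0.000361 and 0.00826 from edgeR's quasi-likelihood test. E2F1, an activator that RB1 binds, was at 4.7 and 5.98 CPM in siNC and 7.07 and 8.44 CPM in siPRR11, a log2 fold change of 0.54 (edgeR, adjusted p = 0.0278). The adjusted p of E2F1 was 0.0882 without siNC library 1 and 0.179 without siPRR11 library 2, and that of E2F8 was 0.0694 without siPRR11 library 2. E2F4, the main partner of p107 and p130 in repression, fell from 88.2 and 91.1 to 67 and 68.1 CPM, by 0.41 on the log2 scale (edgeR, adjusted p = 0.00317).

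MuvB is the protein core that joins p107 or p130 and E2F4 in the DREAM repressor, and B-MYB or FOXM1 in the activation of mitotic genes. Of 9 genes for it and its partners, 4 were called higher and none lower (all tested genes: 7.61% and 9.14%), with a median log2 fold change of 0.25. MYBL1, LIN9 and FOXM1 rose by 1.08, 0.55 and 0.66. MYBL2, the gene of B-MYB, had a log2 fold change of 0.25 and was not called (edgeR quasi-likelihood, adjusted p = 0.0839). FOXM1 was at 79.3 and 75.3 CPM in siNC and 124.7 and 119.8 CPM in siPRR11 (edgeR quasi-likelihood, adjusted p = 0.000185).

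Among 21 E2F target genes of S phase, 10 were called higher and 3 lower (all tested genes: 7.61% and 9.14%), and the median log2 fold change was 0.24. RRM2, TYMS and CDT1, for enzymes of nucleotide synthesis and a licensing factor, rose by 1.18, 0.75 and 0.78. RRM1, the partner subunit of RRM2, fell by 1.35, and CHAF1A and MCM6 fell by 0.53 and 0.36. The call of MCM6 did not hold without siPRR11 library 1 (edgeR quasi-likelihood, adjusted p = 0.239).

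The ubiquitin ligases that remove p21 and p27 were read from 11 genes, of which 4 were called higher and none lower, against 7.61% and 9.14% of all tested genes. The median log2 fold change was 0.11. The call of UBAC1, a gene named here after its values were seen, was lost without siNC library 2, siPRR11 library 1 or siPRR11 library 2 (edgeR, adjusted p = 0.112, 0.145 and 0.06). DTL, the receptor of the CUL4 ligase for p21, rose from 17.3 and 18.6 to 33.1 and 34.2 CPM, by 0.91 on the log2 scale (edgeR quasi-likelihood, adjusted p = 7.71e-05). CUL4B rose by 0.48. CKS1B, the cofactor with which SKP2 recognizes p27, rose by 0.55, while SKP2 itself had a log2 fold change of 0.07 (95% interval -0.14 to 0.27) and was not called.

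Of 18 regulators of the inhibitor genes, 1 was called higher and 3 lower, with a median log2 fold change of -0.08. These 4 calls lie near the 16.7% of all tested genes that were called, and 2 and 1 were left without siPRR11 library 1 and siPRR11 library 2. MYC, which represses CDKN1A and CDKN2B through ZBTB17, was at 73.5 and 81 CPM in siNC and 39 and 44.5 CPM in siPRR11, a log2 fold change of -0.89 (edgeR quasi-likelihood, adjusted p = 9.23e-05). ZBTB17 had a log2 fold change of -0.30, whose adjusted p of 0.0385 became 0.124 without siNC library 1, 0.12 without siPRR11 library 1 and 0.263 without siPRR11 library 2. Among Polycomb genes, which silence the CDKN2A locus in many cells, EZH2 had a log2 fold change of 0.28 and RNF2 of -0.43. The adjusted p of EZH2 was 0.194 without siPRR11 library 1 and 0.0893 without siPRR11 library 2, and that of RNF2 was 0.0845 without siPRR11 library 2.

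**Figure D5:**
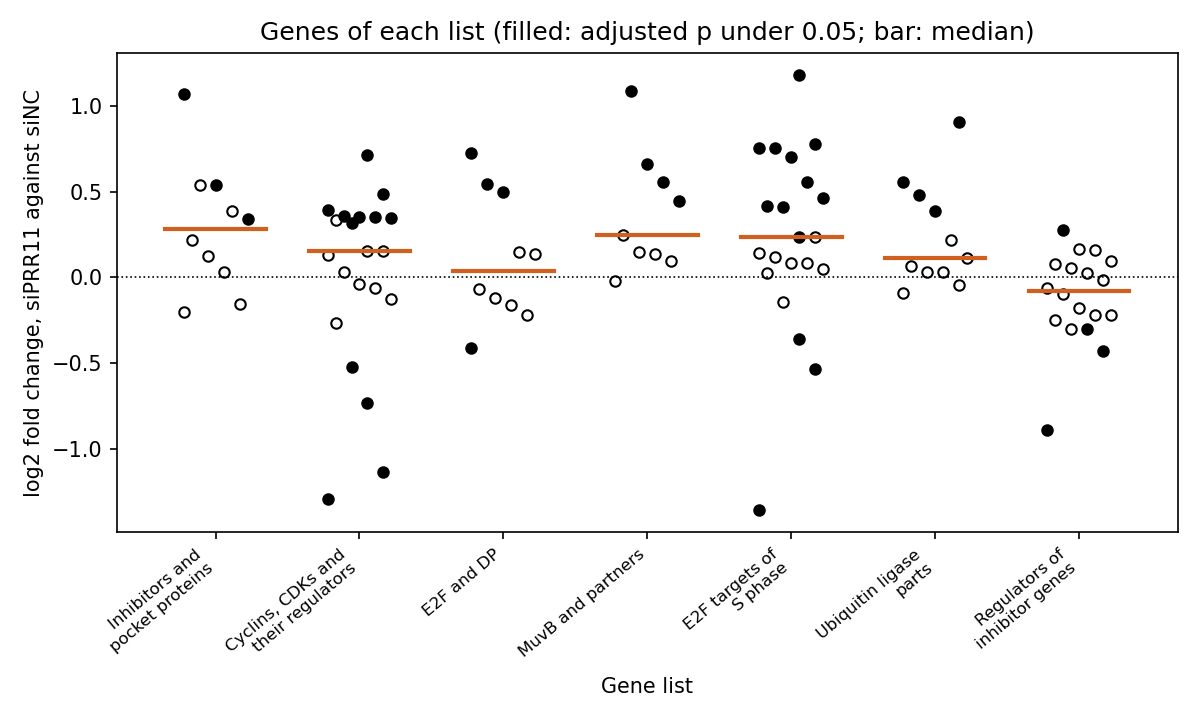
log2 fold change of every tested gene of each list between siPRR11 and siNC; filled points had an adjusted p under 0.05 and the orange bars are list medians. The inhibitors and pocket proteins have a median of 0.28, MuvB and its partners of 0.25, and the regulators of the inhibitor genes the lowest, -0.08.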

How the data were processed

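RNA-seq libraries of ACHN cells (2 siNC, 2 siPRR11) were compared. The authors prepared stranded libraries, trimmed reads (Trimmomatic 0.36 per the labels), mapped the rest with STAR on GRCh38 and used featureCounts (Subread 1.5.1) for counting. They deposited raw counts per gene and RPKM of the same genes. Neither the annotation release nor the strand setting of featureCounts is given in the sources used here. Low counts were mostly even, for a reason that was not tested, and floors cover counting error only. TMM normalization, filterByExpr and edgeR's quasi-likelihood test (edgeR 4.0.16, R 4.3.3) with condition as the only term were applied to 21630 genes, with Benjamini-Hochberg adjustment over all of them and 0.05 as the threshold. A standard error is the log2 fold change divided by the square root of F. The named genes are the 10 members, PRR11, up to 3 called rises and 3 called falls per list whose average log2 CPM reached 1, neighbours and overlapping genes of members, and CCND1, CDK4, CDK6, CCNE1, CDK2, E2F1 and SKP2. MYBL2 and UBAC1 were named after their values were seen. The members and lists were chosen with earlier results of these data known. Alternatives were RLE normalization, DESeq2 1.42.0, other filters, the replicate number as a block, limma 3.58.1 with a variance trend on log2 of RPKM plus 1 or 0.1, and each library left out. The tests were tested on simulated data. Positions are from the count table. Further genes of the rule are not reported here.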

Additional observations from a re-analysis of the deposited data

How the results depend on the processing

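CDKN1A, CDKN2C and PRR11 kept their direction and their call under every alternative run. RBL1 kept its direction under all of them and lost its call in both limma fits and without siNC library 1, siPRR11 library 1 or siPRR11 library 2. CDKN2A, never called, had log2 fold changes of 0.05 without siNC library 1 and 0.21 without siPRR11 library 2, and -0.65 at the lowest. With each library left out, 2 to 5 members and 2172 to 4590 of all genes were called, and the lone library of a group was assumed to vary like the rest. The called genes were then 7 to 12 among cyclins and CDKs, 2 to 4 among E2F and DP genes and 1 to 6 among regulators of the inhibitor genes. Limma on log2(RPKM + 1) and log2(RPKM + 0.1) called 1775 and 1878 genes, 61.5% and 61.3% of them higher against 45.4% in the test on counts, 2 members each (CDKN1A and CDKN2C) and 2 regulators each. CDKN2D was called without a filter on low counts (adjusted p = 0.0466 from edgeR). With the replicate number as a block, edgeR called 6988 genes, 6 members (CDKN1B, CDKN2D and RB1 besides the 3) and 8 regulators. The libraries share only a number as far as the labels go, although the deviations of same-numbered libraries correlated at 0.48 across 14193 genes. The causes were not tested. CDKN1C and CDKN2A had 80 or fewer counts in every library and the widest 95% intervals of the 10 members.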

Other observations

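CDKN1C lies in the imprinted region of chromosome 11p15, and its neighbours there were read beside it. IGF2, a growth factor gene of the same region, was at 11 and 10.6 CPM in siNC and 17.2 and 17.3 CPM in siPRR11, a log2 fold change of 0.68 (edgeR quasi-likelihood, adjusted p = 0.000839), called with each library left out. H19, the noncoding RNA beside IGF2, had a log2 fold change of -0.03 (edgeR, adjusted p = 0.928), and KCNQ1OT1, the noncoding RNA of the domain of CDKN1C, had 0.14 (edgeR, adjusted p = 0.651). The value of KCNQ1OT1 ran from -0.14 without siNC library 2 to 0.51 without siNC library 1, where it was called (edgeR, adjusted p = 0.00641). PHLDA2, NAP1L4 and SLC22A18 were not called, with log2 fold changes of 0.11, 0.07 and -0.36. KCNQ1 had too few counts to be tested, 4 to 18 per library.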
